A study of Mus musculus with 9 samples.

Results

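The genes described here encode the subunits of the mitochondrial respiratory chain and of ATP synthase, with the assembly factors that share their names. They were taken from the gene table by name: Nduf genes (complex I), Sdha to Sdhd (complex II), Uqcr genes (complex III), Cox4 to Cox8 genes (complex IV), Atp5 genes (complex V) and the mt- protein genes. The rule found 112 of the 32671 genes in the table, 99 in the nucleus and 13 in mitochondrial DNA. A further 12 names ending in -ps were left out. The rule uses names and no measured value, but it was set with earlier results of these data known. Whole-lung poly(A) RNA was sequenced at day 21 in 3 groups of 3 libraries, all from wild-type C57BL/6 mice. The LNP group had been challenged with bleomycin and then treated with inhaled lipid nanoparticles, labelled mCas9/gSting@DOPS, a name that gives Cas9 with a guide against Sting, a gene of cytosolic DNA sensing. The bleomycin group had the challenge alone, which is used to provoke lung fibrosis, and the control group had saline. No group received particles with another cargo among the samples used here, so the carrier and the guide cannot be told apart. The labels do not say whether each library came from its own animal, and p-values measure only the spread between these samples.

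The respiratory chain passes electrons from NADH and succinate to oxygen and pumps protons across the inner mitochondrial membrane, and ATP synthase uses that gradient to make ATP. Complex II is encoded wholly in the nucleus, whereas the other complexes are built from subunits of both genomes. Mitochondrial DNA is transcribed as long precursors from which transfer RNAs are cut out between the messenger RNAs. Genes on the same strand therefore share precursors but need not share their stability. mt-Nd6 lies on the minus strand and the other mitochondrial members on the plus strand. In the lung, type 2 alveolar cells and ciliated cells are rich in mitochondria. In bulk tissue, fewer cells of a type and less RNA per cell cannot be told apart.

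Markers of lung epithelium were present in every library. Summed levels of 8 type 2 cell markers, among them the surfactant gene Sftpc, were 7490 to 22716.1 CPM (counts scaled to library size) in LNP, 8710 to 10341.9 in bleomycin and 24158.5 to 32550.8 in control libraries. Summed levels of 9 ciliated cell markers were 327 to 597, 217 to 261 and 799 to 1050 CPM in LNP, bleomycin and control libraries, and those of 10 macrophage markers were 2410 to 5100, 7260 to 7850 and 527 to 587 CPM. None of these lists held a gene at 0 in all libraries. One library stood apart: LNP replicate 3 held 8580 CPM of 12 skeletal muscle markers, against 12 and 12.4 CPM in the other LNP libraries, and 1760 CPM of 5 squamous epithelium markers, against 16.3 and 4.37 CPM. Total counts were 56047830 to 69404903 per library. The part that cell makeup has in the results below was not tested.

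After bleomycin, mitochondrial members were called in 1 direction and nuclear members in both. Of the 13 mitochondrial members, 0 were higher and 6 were lower than in control (edgeR's quasi-likelihood F test over all genes, Benjamini-Hochberg adjusted p under 0.05), which is 46.2% of them, where 18.5% of all 20794 genes tested were lower. Of the 97 nuclear members tested, 11 were higher (11.3%) and 8 lower (8.25%), where 15.2% of all genes were higher and 33.7% were called in either direction. In this fit the nuclear shares lay below these backgrounds in both directions, but for higher genes this depended on single libraries. Without control replicate 2, 18 nuclear members were higher, where 13.8% of all genes were. Without LNP replicate 3, 22 were higher, where 20.5% of all genes were. Bleomycin and control libraries did not overlap in 6 mitochondrial members, all lower, where 29.6% of all genes were lower without overlap. Among the nuclear members they did not overlap in 28 higher and 13 lower genes, where 25.9% of all genes were higher without overlap. The median log2 fold change was -0.54 over the mitochondrial members, 0.14 over the nuclear members and -0.05 over all genes tested. Cox7b2 and Ndufa11b were too low to be tested, and every other member passed the filter on low counts.

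**Figure D1:**
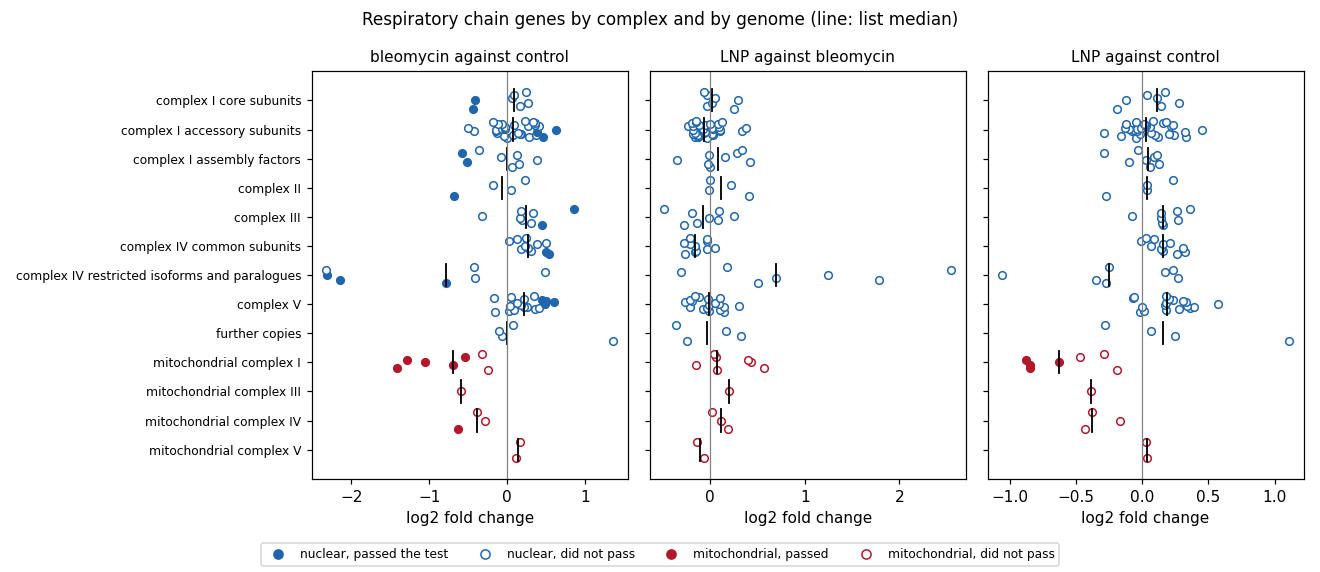
Each point is 1 gene, placed by its log2 fold change (x axis) in the row of its complex, for bleomycin against control, LNP against bleomycin and LNP against control. Filled points passed an adjusted p of 0.05 and the black line is the median of the row. The mitochondrial complex I row stands left of 0 in both comparisons with control, with medians of -0.70 and -0.63. For bleomycin against control the nuclear rows of complex III, common complex IV subunits and complex V have medians of 0.25, 0.26 and 0.21. The restricted complex IV forms and paralogues have -0.78 there. The comparisons share libraries.

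The 13 mitochondrial genes summed to 17832.8, 17115.0 and 17926.1 CPM in LNP libraries, 17037.0, 15020.9 and 14856.1 CPM in bleomycin libraries, and 25814.8, 18222.8 and 26289.3 CPM in control libraries. Bleomycin libraries lay below all control libraries, and control replicate 2 stood far closer to the bleomycin and LNP libraries than to the other controls. The 99 nuclear genes summed to 7296 ± 391 CPM in LNP, 7349 ± 338 CPM in bleomycin and 6871 ± 846 CPM in control libraries (SD, n = 3), with overlap between all groups. The ratio of the mitochondrial to the nuclear sum was 2.42 ± 0.07 in LNP, 2.13 ± 0.09 in bleomycin and 3.495 ± 1.01 in control libraries (SD, n = 3), and control replicate 2 alone was at 2.32. On the log2 scale the ratio differed by -0.72 between bleomycin and control, and by -0.94 without control replicate 2.

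**Figure D2:**
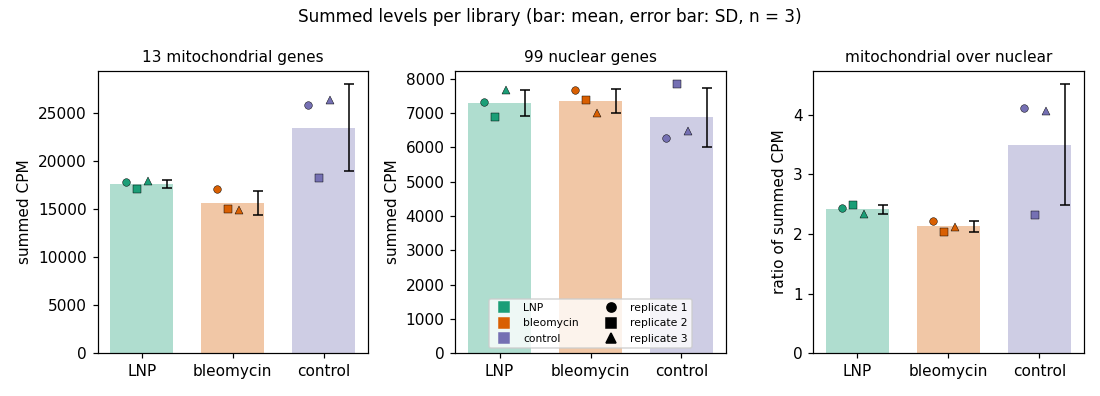
Summed CPM (y axes, from 0) of the 13 mitochondrial and the 99 nuclear genes and the ratio of the sums, for LNP, bleomycin and control libraries. Points are libraries, bars are means and error bars are SD (n = 3). Control replicate 2 has a ratio of 2.32, against 4.11 and 4.05 in the other controls.

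Among the mitochondrial genes, 5 of the 7 complex I subunits were called lower after bleomycin (71.4%, where 18.5% of all genes were), and by different amounts. All 7 had negative log2 fold changes. mt-Nd2, a membrane subunit of complex I, had 1068, 1041 and 701.4 CPM in LNP, 701.3, 596 and 600.2 CPM in bleomycin and 1760, 1560 and 1735 CPM in control libraries. Bleomycin libraries lay below all controls, with a log2 fold change of -1.41 ± 0.18 (SE) and an adjusted p of 0.00055, or 0.38 of the control level. mt-Nd4l had 118, 126 and 102 CPM in LNP, 90.5, 85.0 and 86.9 CPM in bleomycin and 237, 179 and 223 CPM in control libraries, a log2 fold change of -1.28 ± 0.14 for bleomycin against control (adjusted p 0.00031). Its neighbour mt-Nd4 had 1610, 1594 and 1426 CPM in LNP, 1197, 1106 and 1130 CPM in bleomycin and 2471, 2044 and 2655 CPM in control libraries, a log2 fold change of -1.06 ± 0.14 (adjusted p 0.00069). For these 3 genes each LNP library lay above every bleomycin library and below every control library, although for mt-Nd2 the lowest LNP library, at 701.4 CPM, was level with the highest bleomycin library, at 701.3 CPM. That LNP library was replicate 3, which also had the lowest sum of type 2 cell markers in its group, and the part of those cells in this value was not tested.

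mt-Nd3, a further membrane subunit of complex I, also fell after bleomycin but did not share that order. It had 62.1, 48.6 and 47.7 CPM in LNP, 67.8, 58.1 and 50.4 CPM in bleomycin and 94.5, 89.6 and 102 CPM in control libraries, with a log2 fold change of -0.70 ± 0.15 for bleomycin against control (adjusted p 0.0075). LNP and bleomycin libraries overlapped, and both lay below control. mt-Nd5 changed by -0.54 ± 0.17 (adjusted p 0.033) and mt-Co1, the catalytic subunit of complex IV and the most abundant member, by -0.63 ± 0.16 (adjusted p 0.015). mt-Co1 had 6763, 6587 and 7632 CPM in LNP, 6558, 5943 and 5857 CPM in bleomycin and 10620.2, 7722 and 9979 CPM in control libraries.

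The other 7 mitochondrial genes did not pass the test for bleomycin against control, and control replicate 2 was the lowest control library in each of them. mt-Cytb, the mitochondrial subunit of complex III, had a log2 fold change of -0.59 ± 0.22 (adjusted p 0.066), and mt-Nd1, mt-Nd6, mt-Co2 and mt-Co3 lay between -0.25 and -0.39. The 2 ATP synthase genes were the only mitochondrial members with positive values, 0.11 ± 0.28 for mt-Atp6 and 0.16 ± 0.29 for mt-Atp8 (adjusted p 0.79 and 0.7). mt-Atp6 had 926, 772 and 1058 CPM in LNP, 1138, 895 and 860.1 CPM in bleomycin and 1008, 495 and 1174 CPM in control libraries. Without control replicate 2, 11 of the 13 mitochondrial genes were lower in bleomycin, where 15.5% of all genes were, and mt-Atp6 and mt-Atp8 turned to -0.18 and -0.15 without passing the test. Without bleomycin replicate 1 mt-Atp6 was at -0.03.

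**Figure D3:**
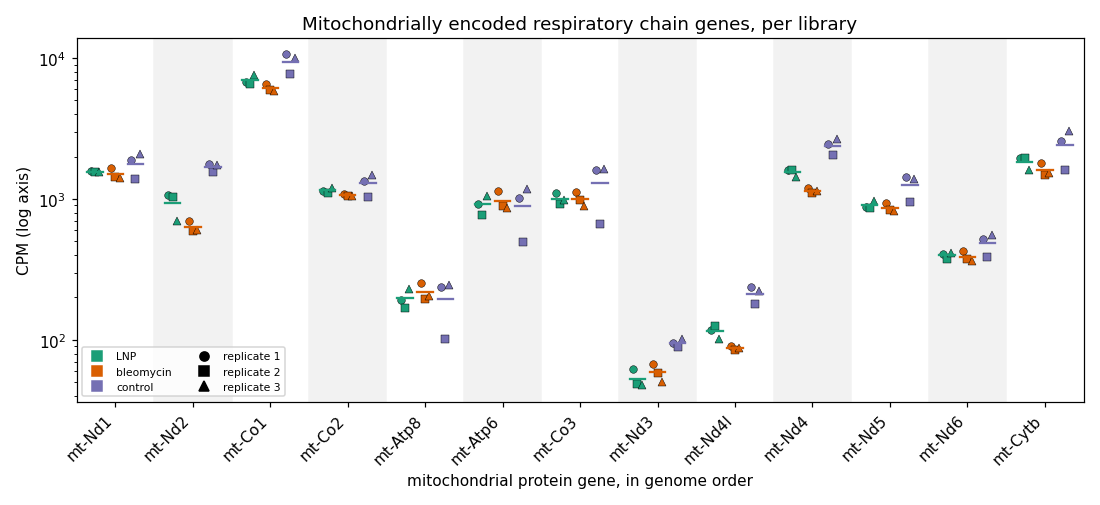
CPM (log axis) of the 13 mitochondrial protein genes in genome order, for LNP, bleomycin and control libraries from left to right within each gene. Points are libraries and lines are group means. The groups separate at mt-Nd2, mt-Nd4l and mt-Nd4, and control replicate 2 stands low at mt-Atp8, mt-Atp6 and mt-Co3.

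Expressed as a share of the 13 genes' counts within a library, the genes still differed from each other. mt-Nd2 took 5.33% ± 1.23 in LNP, 4.04% ± 0.07 in bleomycin and 7.33% ± 1.08 in control libraries (SD, n = 3). mt-Nd4 took 8.76% ± 0.72, 7.33% ± 0.29 and 10.3% ± 0.84 in LNP, bleomycin and control libraries. mt-Atp6 took 5.2% ± 0.70 in LNP, 6.14% ± 0.47 in bleomycin and 3.70% ± 0.89 in control libraries. mt-Co1, the largest share, took 39.7% ± 2.54 in LNP, 39.2% ± 0.58 in bleomycin and 40.5% ± 2.28 in control libraries. In mt-Nd2 and mt-Nd4 all bleomycin libraries had smaller shares than all control libraries, in mt-Atp6 all had larger ones, and in mt-Co1 the groups overlapped.

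Several of these genes touch or overlap, which limits how reads can be told apart. All 37 genes on the mitochondrial chromosome had the same start, end and strand in the deposited table as in the GENCODE vM21 annotation of GRCm38, from which the sequences are shown. This match covers the mitochondrial chromosome only and does not give the build used for nuclear genes. The authors placed Sdha at chr13:74470373-74498399, away from its GRCm38.p6 promoter at chr13:74350241-74350490. mt-Atp8 and mt-Atp6 share 43 bases in different reading frames, and mt-Nd4l and mt-Nd4 share 7. In the lines below the shared bases are in capitals, between 15 bases of each gene on either side, and reads within them belong to both genes.
mt-Atp8 and mt-Atp6, chrM:7912-7984, plus strand: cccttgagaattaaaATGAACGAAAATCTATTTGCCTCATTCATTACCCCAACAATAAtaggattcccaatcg
mt-Nd4l and mt-Nd4, chrM:10152-10188, plus strand: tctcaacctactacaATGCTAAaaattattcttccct

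The non-coding genes of mitochondrial DNA were also low. Of the 22 ribosomal and transfer RNA genes tested, 11 were lower after bleomycin and 0 higher, with a median log2 fold change of -1.05, and all 22 values were negative. The ribosomal RNA gene mt-Rnr1 had 128, 100.1 and 95.6 CPM in LNP, 98.1, 119 and 134 CPM in bleomycin and 196, 168 and 209 CPM in control libraries (log2 fold change -0.71 ± 0.17 for bleomycin against control, adjusted p 0.01). Transfer RNAs are not captured well by poly(A) selection, and their counts here were small. The 3 transfer RNA genes between mt-Nd1 and mt-Nd2, for isoleucine, glutamine and methionine, had the lowest log2 fold changes of the 22. mt-Tm had 110, 91 and 23 counts in LNP, 56, 64 and 56 counts in bleomycin and 329, 281 and 290 counts in control libraries, a log2 fold change of -2.32 ± 0.45 (adjusted p 0.0042). mt-Ti had 25, 17 and 3 counts in LNP, 6, 2 and 3 in bleomycin and 45, 37 and 67 in control libraries (log2 fold change -3.65 ± 0.79, adjusted p 0.007). mt-Tq lies on the opposite strand between them and had 48, 22 and 0 counts in LNP, 13, 5 and 7 in bleomycin and 81, 87 and 105 in control libraries (log2 fold change -3.37 ± 1.02, adjusted p 0.03). Their sequences are shown because they make up the whole stretch in front of mt-Nd2, apart from 2 bases, and because mt-Ti and mt-Tq share 3 bases at their ends. Without knowledge of how strand was counted, reads of mt-Tq and of its opposite strand cannot be told apart.
mt-Ti, chrM:3706-3774, plus strand: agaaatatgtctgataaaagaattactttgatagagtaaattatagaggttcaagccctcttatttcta
mt-Tq, chrM:3772-3842, minus strand: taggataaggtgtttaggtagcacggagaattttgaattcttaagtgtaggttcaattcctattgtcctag
mt-Tm, chrM:3845-3913, plus strand: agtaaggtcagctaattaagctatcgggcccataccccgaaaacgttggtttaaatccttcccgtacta

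Between LNP and bleomycin lungs no member passed the test. For LNP against bleomycin edgeR called 0 of the 13 mitochondrial and 0 of the 97 nuclear members, where 4.28% of all genes were higher and 1.87% lower, 6.16% in all. LNP and bleomycin libraries did not overlap in 5 mitochondrial members, all higher, and in 13 higher and 3 lower nuclear members, where 29.9% of all genes did not overlap. At an unadjusted p under 0.05 there were 3 mitochondrial and 9 nuclear members, where 25.1% of all genes were, and DESeq2 called 2 mitochondrial and 3 nuclear members, all higher. mt-Nd2 was at 0.57 ± 0.18 (95% interval 0.17 to 0.96, adjusted p 0.086), mt-Nd4 at 0.43 ± 0.14 (0.12 to 0.74, adjusted p 0.095) and mt-Nd4l at 0.40 ± 0.14 (0.09 to 0.71, adjusted p 0.11). mt-Nd3 was at -0.15 ± 0.15 (-0.49 to 0.19, adjusted p 0.58). The medians were 0.07 over the mitochondrial members, -0.02 over the nuclear members and 0.04 over all genes.

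These 0 calls rested on LNP replicate 3, the library with skeletal muscle and squamous RNA. Without it, mt-Nd2 (0.74 ± 0.12, adjusted p 0.002), mt-Nd4 and mt-Nd4l (0.49 ± 0.13 each, adjusted p 0.023 each) were higher in LNP than in bleomycin. The nuclear members Ndufb3 (0.59 ± 0.14, adjusted p 0.013), Ndufab1, Ndufaf3, Sdha, Cox4i2 and Cox6b2 were higher too, and Cox7a2l (-0.62 ± 0.14, adjusted p 0.011) and Uqcrfs1 were lower. In that fit 14% of all genes were higher and 10.7% lower, so the 6 and 2 nuclear members of 97 lay below the background. The 3 mitochondrial members of 13 are too few to set apart from it. Of these, mt-Nd4l and mt-Nd4 are overlapping neighbours. Leaving out any other single library left 0 members called.

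Against control, LNP libraries kept 4 mitochondrial members lower: mt-Nd4l (-0.88 ± 0.14, adjusted p 0.0056), mt-Nd3 (-0.85 ± 0.15, adjusted p 0.0094), mt-Nd2 (-0.85 ± 0.18, adjusted p 0.018) and mt-Nd4 (-0.63 ± 0.14, adjusted p 0.023). This is 30.8% of the 13, where 3.08% of all genes were lower in LNP than in control and 4.95% higher. LNP and control libraries did not overlap in 5 mitochondrial members, all lower, and in 11 higher and 3 lower nuclear members, where 28.8% of all genes did not overlap. Of the nuclear members edgeR called 0 of 97, with 10 at an unadjusted p under 0.05, where 24% of all genes were, and DESeq2 called 1, higher. The mitochondrial count was 2 without control replicate 1 or control replicate 3 and 7 without control replicate 2. mt-Nd3 and mt-Nd4l were called in all 9 such fits, mt-Nd2 lost its call without control replicate 1 or 3, and mt-Nd4 also without bleomycin replicate 2 or LNP replicate 2. The nuclear count was 3 higher (Atp5if1, Atp5me and Uqcrb) and 1 lower (Cox6a2) without LNP replicate 3, and 2 higher without control replicate 2. This comparison shares its libraries with the other 2.

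By FPKM, all mitochondrial messenger RNAs stood above the nuclear ones in control libraries, mt-Nd3 only by little. In control libraries the authors' FPKM values ranged from 252.5 for mt-Nd3 to 5649 for mt-Co1, whereas the highest nuclear member was Cox6a1, a structural subunit of complex IV, at 208 FPKM. In bleomycin libraries mt-Nd3 averaged 148 FPKM, below Cox6a1 at 224 FPKM and Cox4i1 at 199 FPKM. The FPKM of nuclear genes are low estimates of the messenger RNA: for 58 of 111 members the length implied by the counts and FPKM was over 1.5 times that of the most counted transcript. Atp5mg is the clearest case, with an implied length of 7029 bases against 544 bases. With such lengths the order of mt-Nd3 and the highest nuclear genes is uncertain.

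In complex I, few nuclear genes passed the test, and the medians of the core and the accessory subunits were 0.08 and 0.07. The 7 core subunits, among them those that hold the flavin and the iron-sulfur clusters, included 2 genes lower after bleomycin and 0 higher. That is 28.6% lower, where 18.5% of all genes were. Ndufs1, which carries iron-sulfur clusters, had 61.2, 54.9 and 49.7 CPM in LNP, 43.7, 46.8 and 49.2 CPM in bleomycin and 66.8, 60.9 and 61.6 CPM in control libraries (log2 fold change -0.44 ± 0.12 for bleomycin against control, adjusted p 0.021). Ndufs7 fell by 0.41 ± 0.12 (adjusted p 0.021). Of the 30 accessory subunits, which surround the core, 3 were higher (10%, where 15.2% of all genes were) and 0 lower: Ndufa11 (0.46 ± 0.14, adjusted p 0.027), Ndufb1 (0.63 ± 0.19, adjusted p 0.03) and Ndufa8 (0.38 ± 0.13, adjusted p 0.048). The 8 assembly factors included 2 lower (25%, near the 18.5% of all genes), Ndufaf7 (-0.58 ± 0.13, adjusted p 0.0094) and Ndufaf3 (-0.52 ± 0.15, adjusted p 0.028). Ndufaf7 was lower without any 1 library, and the other 6 lost their call when some libraries were left out.

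In complex II, which links the tricarboxylic acid cycle to the chain, only the flavoprotein Sdha passed the test of the 4 subunits. Sdha had 222, 221 and 203 CPM in LNP, 150.4, 159 and 176 CPM in bleomycin and 253, 283 and 243 CPM in control libraries. The 3 groups did not overlap, with bleomycin lowest and control highest. The log2 fold change for bleomycin against control was -0.68 ± 0.12 (adjusted p 0.0027), and it passed the test without any 1 library. For LNP against bleomycin it was 0.41 ± 0.12 (95% interval 0.14 to 0.68, adjusted p 0.074), the smallest adjusted p of any member in that comparison. The other subunits, Sdhb, Sdhc and Sdhd, were at 0.05, -0.18 and 0.23 for bleomycin against control.

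In complexes III, IV and V the calls among commonly expressed subunits were all higher in bleomycin. They were 2 of 8 complex III subunits (25%), 2 of 11 common complex IV subunits (18.2%) and 4 of 18 complex V subunits (22.2%), shares near the 15.2% of all genes that were higher. Uqcrq, a small subunit of complex III, had 60.3, 54.6 and 54.9 CPM in LNP, 92.9, 84.4 and 60.7 CPM in bleomycin and 42.0, 51.8 and 38.4 CPM in control libraries. Its bleomycin libraries lay above all others, with a log2 fold change of 0.85 ± 0.18 against control (adjusted p 0.0059), and LNP libraries lay between (-0.49 ± 0.18 for LNP against bleomycin, adjusted p 0.12). Uqcr10 was higher by 0.44 ± 0.14 (adjusted p 0.034), while the large core subunit Uqcrc2 was at -0.32 ± 0.11 (adjusted p 0.054). In complex IV, Cox5a was higher by 0.49 ± 0.14 (adjusted p 0.023) and Cox4i1 by 0.53 ± 0.18 (adjusted p 0.046). In complex V the genes that passed, Atp5mg, Atp5mj, Atp5mk and Atp5me, all encode small membrane subunits. Atp5mg had 79.0, 66.9 and 86.1 CPM in LNP, 102, 94.3 and 82.9 CPM in bleomycin and 59.0, 67.7 and 57.5 CPM in control libraries (0.60 ± 0.14, adjusted p 0.0097). Atp5f1a and Atp5f1b, the most counted nuclear members, were at -0.16 ± 0.14 and 0.02 ± 0.15 (adjusted p 0.43 and 0.91). Uqcrq and Atp5mg passed without any 1 library.

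The count of 11 higher nuclear members depended on the libraries. It was 2 without control replicate 1, control replicate 3, bleomycin replicate 1 or bleomycin replicate 2, 5 without LNP replicate 1, 6 without LNP replicate 2, 7 without bleomycin replicate 3, 18 without control replicate 2 and 22 without LNP replicate 3. The share of all genes called higher was 9.07% to 9.89% in the 4 fits with 2 members and 20.5% without LNP replicate 3. Between these it did not follow the count. It was 13.8% without control replicate 2, with 18 members, and 13.9% and 13.7% without LNP replicates 1 and 2, with 5 and 6 members. The count of 8 lower members was 5 and 4 without bleomycin replicates 1 and 2, and 12 without LNP replicate 3. The 6 lower mitochondrial members were 4 without control replicate 1 or bleomycin replicate 2, and mt-Nd2, mt-Nd3, mt-Nd4 and mt-Nd4l were called in all 9 such fits. mt-Co1 lost its call without control replicate 1 or bleomycin replicate 2, and mt-Nd5 without control replicate 1 or 3 or any bleomycin library.

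**Figure D4:**
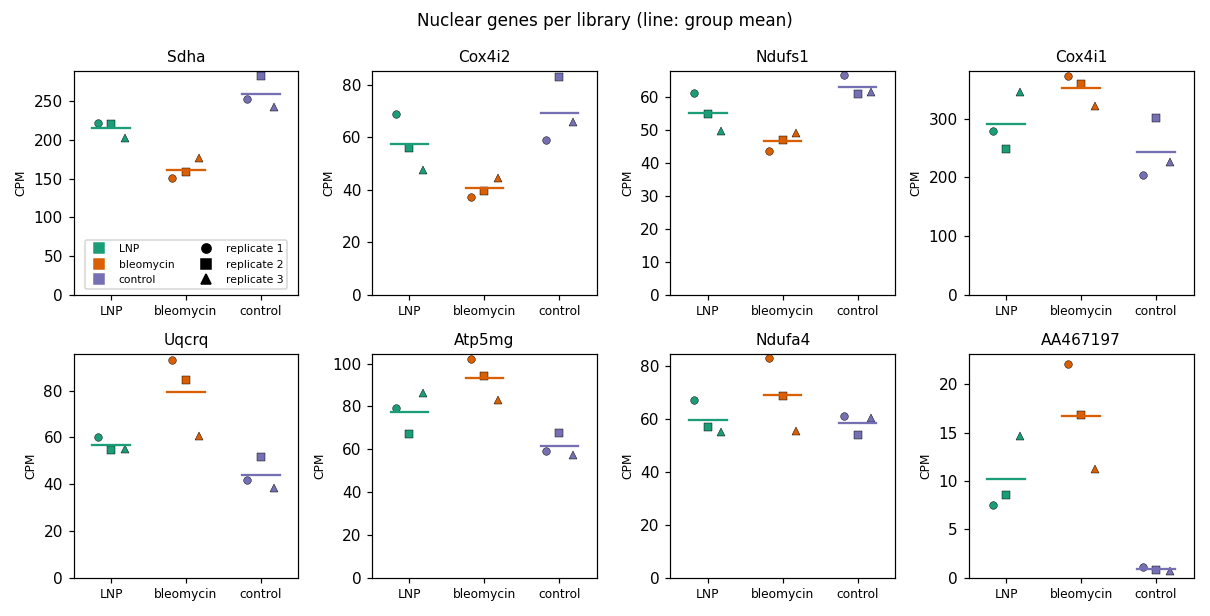
CPM (y axes, from 0) of 7 nuclear members and of AA467197 in LNP, bleomycin and control libraries. Points are libraries and lines are group means. Sdha, Cox4i2 and Ndufs1 are lowest in bleomycin libraries, Uqcrq and Atp5mg are highest there, and AA467197 is near 1 CPM in all controls.

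Among 7 restricted isoforms and paralogues of complex IV, 3 were lower after bleomycin (42.9%, where 18.5% of all genes were) and 0 higher. Their median log2 fold change was -0.78. Complex IV has alternative forms of several subunits: Cox6a2, Cox7a1 and Cox8b are the forms of heart and skeletal muscle, and Cox4i2 is a form found in lung that serves oxygen sensing in pulmonary vessels. Cox4i2 had 68.9, 56.0 and 47.5 CPM in LNP, 37.4, 39.4 and 44.7 CPM in bleomycin and 59.2, 83.2 and 66.0 CPM in control libraries, a log2 fold change of -0.78 ± 0.18 for bleomycin against control (adjusted p 0.0087). Its common counterpart Cox4i1 had 279, 249.2 and 345 CPM in LNP, 374, 360.1 and 322 CPM in bleomycin and 204, 302 and 226 CPM in control libraries. In both genes bleomycin and control libraries did not overlap, in opposite directions. Ndufa4l2 and Cox6b2 were at -0.43 ± 0.15 and -0.42 ± 0.32 (adjusted p 0.056 and 0.34), and Cox7a2l, a supercomplex factor, was at 0.48 ± 0.22 (adjusted p 0.12).

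The muscle forms were low after bleomycin, as were markers of heart muscle and of fat. Cox6a2 had 8.04, 6.69 and 35.8 CPM in LNP, 2.75, 4.87 and 6.95 CPM in bleomycin and 18.3, 27.99 and 17.9 CPM in control libraries. Its log2 fold change for bleomycin against control was -2.14 ± 0.62 (adjusted p 0.025), and it lost its call without control replicate 2 (-1.90, adjusted p 0.073), bleomycin replicate 1 (-1.86, adjusted p 0.092) or bleomycin replicate 2 (-2.14, adjusted p 0.076). Cox7a1 had 1.19, 1.08 and 1.39 CPM in LNP, 0.21, 0.65 and 0.68 CPM in bleomycin and 1.73, 3.27 and 2.67 CPM in control libraries (-2.31 ± 0.46, adjusted p 0.0047). Cox8b had 0.33, 0.61 and 3.71 CPM in LNP, 0.07, 0.26 and 0.45 CPM in bleomycin and 0.91, 1.68 and 1.34 CPM in control libraries (-2.32 ± 0.92, adjusted p 0.078). It was called lower in 3 of 10 alternatives: DESeq2, only the 2 groups compared, and the replicate number as a block. Of 9 fits that left out 1 library, it was called in 2, those without LNP replicate 1 or 3. The 12 cardiac muscle markers summed to 271, 234 and 781 CPM in LNP, 131, 304 and 429 CPM in bleomycin and 940, 1360 and 1210 CPM in control libraries, with 9 of 12 lower in bleomycin than in control and none at 0 in all libraries. The 12 skeletal muscle markers summed to 12, 12.4 and 8580 CPM in LNP, 8.86, 15.6 and 15.6 CPM in bleomycin and 37.0, 54.0 and 36.3 CPM in control libraries, with 0 of 10 tested called. That test used 1 fit over all groups, so the spread brought by LNP replicate 3 entered it. Cox6a2 and Cox8b were highest in LNP replicate 3, as were the skeletal markers, whereas Cox7a1 was not set apart there. Without LNP replicate 3, Cox6a2 was at 0.60 for LNP against bleomycin (adjusted p 0.24) instead of 1.79 (adjusted p 0.11), and was lower in LNP than in control (-1.50, adjusted p 0.025), and Cox8b turned from 0.23 to -1.45 for LNP against control (adjusted p 0.9 and 0.21). The 9 fat markers summed to 65.6, 76.2 and 103 CPM in LNP, 26.3, 35.5 and 39.6 CPM in bleomycin and 248, 295 and 268 CPM in control libraries. Of 8 tested, 6 were lower and 0 higher in bleomycin than in control, and 3 were higher and 0 lower in LNP than in bleomycin. The part of muscle or fat tissue in these values was not tested.

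**Figure D5:**
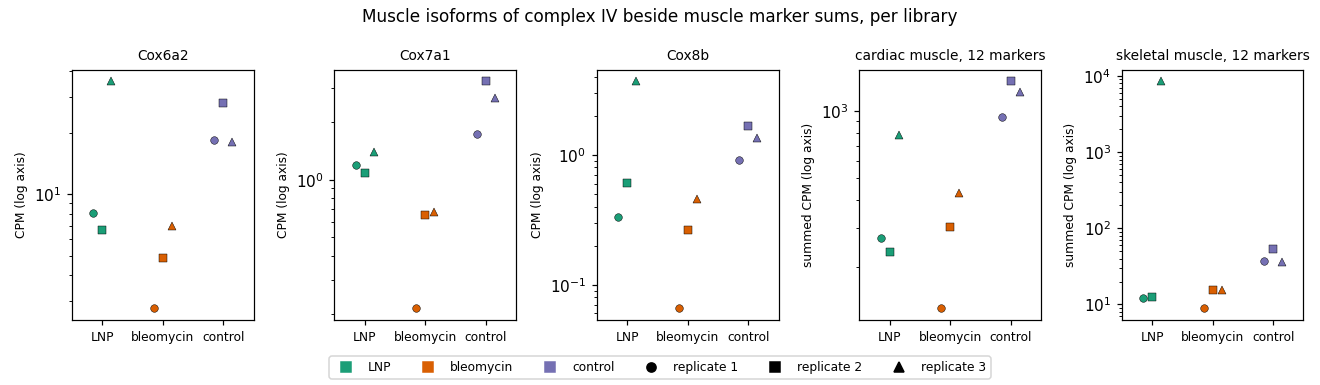
CPM of Cox6a2, Cox7a1 and Cox8b and summed CPM of 12 cardiac and 12 skeletal muscle markers (log axes) in LNP, bleomycin and control libraries. Points are libraries. LNP replicate 3 is the highest library for Cox6a2, Cox8b and the skeletal markers, and all bleomycin libraries lie below all controls in each panel.

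Of the genes that serve the chain, 1 paralogue of a complex IV subunit was higher in both bleomycin and LNP lungs than in control. AA467197 is the mouse counterpart of human C15ORF48, which encodes an inflammation-linked protein known in human cells to take the place of NDUFA4 in complex IV, and its transcript also carries a microRNA. AA467197 had 7.51, 8.61 and 14.6 CPM in LNP, 22.1, 16.8 and 11.3 CPM in bleomycin and 1.11, 0.76 and 0.73 CPM in control libraries. Bleomycin libraries were 19.3-fold above control (log2 fold change 4.27 ± 0.37, adjusted p 0.00012) and LNP libraries 11.8-fold (3.56 ± 0.36, adjusted p 0.00088), with no overlap with control in either group. Ndufa4 itself had 67.1, 57.1 and 55.2 CPM in LNP, 83.1, 68.7 and 55.5 CPM in bleomycin and 61.3, 53.9 and 60.5 CPM in control libraries (0.24 ± 0.16 for bleomycin against control, adjusted p 0.28). AA467197 stood beside the macrophage markers, of which 9 of 10 were higher in bleomycin than in control and 7 of 10 higher in LNP than in control, and their part in it was not tested.

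Genes that serve the chain were read from further lists. Of 15 electron carrier and coenzyme Q genes, 2 were higher after bleomycin (13.3%, where 15.2% of all genes were) and 0 lower. They were Coq10b (0.97 ± 0.20, adjusted p 0.0053) and Pdss1 (0.92 ± 0.27, adjusted p 0.026), which makes the coenzyme Q tail. The median log2 fold change of the 15 was -0.29, and 10 of them had negative values. Of 26 assembly factors of complexes III and IV, 1 was higher, the copper chaperone Cox19 (0.51 ± 0.14, adjusted p 0.022), and 4 were lower, Surf1 (-0.63 ± 0.14, adjusted p 0.0079), Uqcc1 (-0.56 ± 0.13, adjusted p 0.01), Cox14 and Bcs1l. Of 14 genes of the tricarboxylic acid cycle, 0 were higher and 3 lower: Idh2 (-0.96 ± 0.15, adjusted p 0.0015), Fh1 (-0.49 ± 0.12, adjusted p 0.013) and Suclg1 (-0.38 ± 0.13, adjusted p 0.041). Idh2, which makes NADPH in mitochondria, had 157, 127 and 140.3 CPM in LNP, 88.6, 93.9 and 96.1 CPM in bleomycin and 153, 217 and 174 CPM in control libraries. It was the only gene of the 7 lists that passed for LNP against bleomycin (0.60 ± 0.15, adjusted p 0.046), and of 9 fits that left out 1 library it kept that call in 2, those without control replicate 2 or LNP replicate 3.

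Genes for mitochondrial gene expression gave a similar mix. Of 22 biogenesis and transcription genes, 1 was higher after bleomycin and 4 lower: Polg, the mitochondrial DNA polymerase, was at -0.54 ± 0.13 (adjusted p 0.013), the nuclear receptor Esrrg at -1.54 ± 0.36 (adjusted p 0.0099) and the ribosomal RNA methyltransferase Tfb1m at -1.27 ± 0.39 (adjusted p 0.031). Of 19 genes for mitochondrial RNA processing and stability, 1 was higher and 3 lower, with Fastkd1 at -0.79 ± 0.18 (adjusted p 0.0086) and Ptcd3 at -0.59 ± 0.17 (adjusted p 0.024). Lrpprc, which binds and stabilises mitochondrial messenger RNAs, had 31.2, 28.2 and 18.4 CPM in LNP, 18.6, 17.1 and 17.6 CPM in bleomycin and 35.5, 31.1 and 31.8 CPM in control libraries (-0.89 ± 0.19, adjusted p 0.0065). Ucp2, an inner membrane carrier, had 980.1, 988 and 844 CPM in LNP, 1347, 1126 and 1069 CPM in bleomycin and 649, 738 and 906 CPM in control libraries (0.63 ± 0.16, adjusted p 0.016). Against backgrounds of 15.2% higher and 18.5% lower, the share called lower was 15.4% of the assembly factors, 18.2% of the biogenesis genes, 15.8% of the RNA processing genes, 21.4% of the cycle genes and 50.0% of the mitochondrial ribosomal and transfer RNA genes.

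The promoters of nuclear members were read for 4 motifs. RefSeq promoters of GRCm38.p6, from 250 bases before to 50 bases after the start, were matched for 77 of the 99 nuclear members. The NRF1 motif GCGCATGCG, on either strand, was in 13% of these and in 1.95% of all 27025 promoters. The YY1 motif AAGATGGCG was in 10.4% against 1.64%, the ETS motif CCGGAAGT in 6.49% against 4.31% and the TATA motif TATAAA in 9.09% against 15.7%. The first 250 bases are shown for Atp5mg (Atp5l in RefSeq), which was higher in bleomycin, for Sdha, which was lower, and for AA467197, with matches in capitals. Atp5mg holds the NRF1 and the TATA letters, each on the minus strand, and none of the 4 motifs was found in the other stretches, which says only that these letters are not in these windows.
Atp5mg, chr9:44920743-44920992, minus strand: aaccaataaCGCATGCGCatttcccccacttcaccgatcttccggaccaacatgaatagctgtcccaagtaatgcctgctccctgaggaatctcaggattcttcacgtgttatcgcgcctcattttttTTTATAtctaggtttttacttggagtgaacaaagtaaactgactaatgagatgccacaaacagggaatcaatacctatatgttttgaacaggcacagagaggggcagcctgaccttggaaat
Sdha, chr13:74350241-74350490, minus strand: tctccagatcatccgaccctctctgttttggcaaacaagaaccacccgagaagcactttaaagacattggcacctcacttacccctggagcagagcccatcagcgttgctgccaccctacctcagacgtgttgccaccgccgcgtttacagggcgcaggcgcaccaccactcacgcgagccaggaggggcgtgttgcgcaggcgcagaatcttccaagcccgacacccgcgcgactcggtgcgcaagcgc
AA467197, chr2:122637637-122637886, plus strand: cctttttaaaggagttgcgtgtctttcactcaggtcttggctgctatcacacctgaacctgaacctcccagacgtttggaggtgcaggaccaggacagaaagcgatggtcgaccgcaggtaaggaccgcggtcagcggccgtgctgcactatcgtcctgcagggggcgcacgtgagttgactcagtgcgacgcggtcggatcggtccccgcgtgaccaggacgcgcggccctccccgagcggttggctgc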

How the data were processed

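Poly(A) RNA from mouse lung was sequenced in 9 libraries that mark strand, 3 per group, per the labels' protocols. Per the submitters' processing notes, fastp, StringTie and edgeR were used. No source used here names the aligner, the genome build, the use of strand or the way counts were derived. For each gene and transcript the authors deposited whole-number counts and FPKM values, which are scaled to transcript length and library size.

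Counts were tested with the quasi-likelihood F test of edgeR 4.0.16 (R 4.3.3) in 1 fit over all 9 libraries, with TMM scaling and filterByExpr, which kept 20794 genes and left out 11877. A call is a Benjamini-Hochberg adjusted p under 0.05 over all genes tested. CPM use TMM-scaled library sizes, ± is SE for fold changes (the log2 fold change over the square root of F), and intervals are 95%. Counts were also simulated with few genes changed, drawn over all levels, unlike bleomycin against control, where 33.7% of genes were called. On these counts the fit recovered 22% of genes changed 2-fold and 68% of those changed 4-fold for bleomycin against control. It recovered 18% and 65% for LNP against bleomycin, and 15% and 65% for LNP against control. Alternatives were DESeq2 1.42.0, limma 3.58.1 on log2(FPKM + 1) and log2(FPKM + 0.1), other scalings and filters, and leaving out each library in turn.

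Members and lists were chosen with earlier results of these data known, and support nothing by themselves. The genes named are all mitochondrial members, restricted complex IV forms and paralogues above 1 FPKM in any group, and Ndufa4. They also include up to 2 called members per direction, list and comparison by smallest p (where none, the member of highest mean FPKM). Up to 3 called genes are named per further list. mt-Tq, Ndufa8, Sdhb, Sdhc, Uqcrc2, Atp5f1b, Cox14, Bcs1l, Ndufb3, Ndufab1, Atp5if1, Uqcrb, Atp5me, Uqcrfs1 and Atp5mk fall outside that rule and were named after their values were seen. The values of 1 gene that the rule names are not reported here. Near-identical copies such as Ndufb4b and Ndufb4c, and genes that overlap, are uncertain.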

Additional observations from a re-analysis of the deposited data

How the results depend on the processing

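Direction and calls were compared over 10 alternatives and 9 fits that each left out 1 library, and the cause of each shift below was not tested. Higher nuclear members for bleomycin against control were 11, and 20 with DESeq2, 17 with only the 2 groups compared, and 4 with no count filter. The count was also 4 with the replicate number as a block. Same-numbered replicates were not paired, with correlations of their deviations between -0.02 and 0.04. For LNP against bleomycin, higher nuclear members were 0, and 3 with DESeq2, library size scaling and limma on log2(FPKM + 1), with or without a filter, and 2 on log2(FPKM + 0.1). Higher mitochondrial members were 0, and 2 with DESeq2, library size scaling and limma on log2(FPKM + 1). The nuclear median of -0.02 became 0.11 with library size scaling, 0.09 on log2(FPKM + 1) and 0.10 on log2(FPKM + 0.1). For LNP against control, higher nuclear members were 0, and 1 with DESeq2, relative log expression scaling, library size scaling and limma with either pseudocount, and 3 with limma without a filter. Lower mitochondrial members were 4, and 2 with only the 2 groups compared and 3 with the replicate block and with limma without a filter, in both of which mt-Nd4 lost its call. Of these, mt-Nd3 and mt-Nd4l were called in all 10 alternatives.

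Leaving out 1 library gave 2 to 22 higher and 4 to 12 lower nuclear and 4 to 11 lower mitochondrial members for bleomycin against control. It gave 0 to 6 higher and 0 to 2 lower nuclear and 0 to 3 higher mitochondrial members for LNP against bleomycin. For LNP against control it gave 0 to 3 higher and 0 to 1 lower nuclear and 2 to 7 lower mitochondrial members, with a mitochondrial median of -0.61 to -0.19.

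Some values near 0 changed sign, none of them called in the main comparison. For LNP against bleomycin, Cox6a1 was at 0.09 with library size scaling and 0.08 in the limma fits, mt-Atp6 at 0.06 and 0.05 in those fits, and Sdhd at -0.01 with DESeq2 and relative log expression scaling. For LNP against control, Atp5f1a was at 0.01 with DESeq2 and relative log expression scaling, 0.03 with the 2 groups alone and 0.04 with library size scaling and in the limma fits. Ndufb11 was at 0.00 with the 2 groups alone and 0.02 with library size scaling and limma, and Ndufaf8 at 0.01 and 0.03 with the 2 groups alone and library size scaling. Cox8b was at -0.49 with the replicate block, -0.40 on log2(FPKM + 0.1) and -0.19 on log2(FPKM + 1), with or without a filter.

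Leaving out 1 library gave, for bleomycin against control, -0.18 to 0.36 for mt-Atp6, -0.15 to 0.36 for mt-Atp8 and -0.29 to 0.05 for Ndufb4c. For LNP against bleomycin it gave -0.02 to 0.07 for Ndufb11, -0.02 to 0.02 for Sdhd, -0.11 to 0.08 for Cox6a1, -0.01 to 0.11 for mt-Nd6, -0.05 to 0.11 for mt-Co3 and -0.18 to 0.07 for mt-Atp6. For LNP against control it gave -0.13 to 0.11 for Ndufb11, -0.25 to 0.19 for Ndufaf8, -0.06 to 0.12 for Ndufa4, -1.50 to 0.03 for Cox6a2, -1.45 to 0.71 for Cox8b, -0.10 to 0.32 for Cox7a2l, -0.09 to 0.11 for Atp5f1a, -0.25 to 0.29 for mt-Atp6, -0.28 to 0.23 for mt-Atp8 and -0.12 to 0.22 for Ndufb4c. With 3 libraries a group, most simulated 2-fold changes were missed. The simulation changed few genes, drawn over all levels, so how many changes in members were missed is not known. Members with smaller changes passed for bleomycin against control, such as Ndufa8 at 1.30-fold.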
